A study of Mus musculus with 267 samples.

Results

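Chil3 and Chil4 were followed across the chromatin maps of bone marrow-derived macrophages (BMDMs) as the tag-table regions and factor peaks whose centres lay within 50 kb of either gene's transcription start. The 2 genes, of 55450 in the annotation, held 14 of 423610 rows of the tag tables and 76 of 1958714 peaks in 54 factor peak lists. Chil3 (ENSMUSG00000040809.10) lies at chr3:106147554-106167564 and Chil4 (ENSMUSG00000063779.6) at chr3:106201490-106219507 (mm10, GENCODE vM21). Both are on the minus strand, and their starts are 51943 bp apart.

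BMDMs came from female mice of 8 to 12 weeks of 5 strains, and were grown with M-CSF for 7 days. The strains were C57BL/6J (C57), SPRET/EiJ (SPRET), BALB/cJ (BALB), PWK/PhJ (PWK) and NOD/ShiLtJ (NOD). The cells were left untreated (basal) or given mouse IL-4 at 20 ng/mL for 24 hours, and in C57 also for 1 and 6 hours. A separate set compared Egr2 fl/fl BMDMs with LyzM-Cre Egr2 fl/fl BMDMs, both basal and after 24 hours of IL-4. Both of these genotypes carry the floxed Egr2 alleles, and LyzM-Cre is active in myeloid cells beyond macrophages. Chromatin immunoprecipitation sequencing (ChIP-seq) measured histone marks of active regulatory DNA (H3K27ac, H3K4me2) and promoters (H3K4me3), RNA polymerase II (Pol II) and the transcription factors EGR2, STAT6, PPARγ, PU.1 and C/EBPβ. Values are tags per 10000000 tags of the library, per replicate.

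Chil3 (Ym1) and Chil4 (Ym2) encode secreted proteins that resemble chitinases but lack chitinase activity. Chil3 is among the best known markers of alternatively activated mouse macrophages, and neither gene has a direct human ortholog. They arose by duplication and share most of their sequence. IL-4 signals through its receptor and JAK kinases to STAT6, which enters the nucleus and binds DNA. STAT6 induces further factors in macrophages, among them EGR2 and PPARγ, while PU.1 and C/EBPβ are lineage factors of myeloid cells.

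The 14 rows fell at 4 positions, all intergenic. Region 1 was centred at chr3:106144325, 3229 bp beyond the 3′ end of Chil3, and had rows in the C57 strain table and the C57 time course. Region 2 (chr3:106170763) lay 3199 bp upstream of the Chil3 start and was in the time course table only. Region 3 (chr3:106172735) lay 5171 bp upstream of Chil3 and was in 5 tables, including both Egr2 genotype tables. Region 4 (chr3:106221753) lay 2246 bp upstream of Chil4 and was in 6 tables: those of C57, BALB, NOD and PWK, the time course and the EGR2 time course. No table held a region within 1 kb of either start, and the SPRET table held no row for the locus. The regions were centred by the authors on open chromatin or EGR2 sites, so a missing row says that no such site was listed there, and gives no level.

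**Figure D1:**
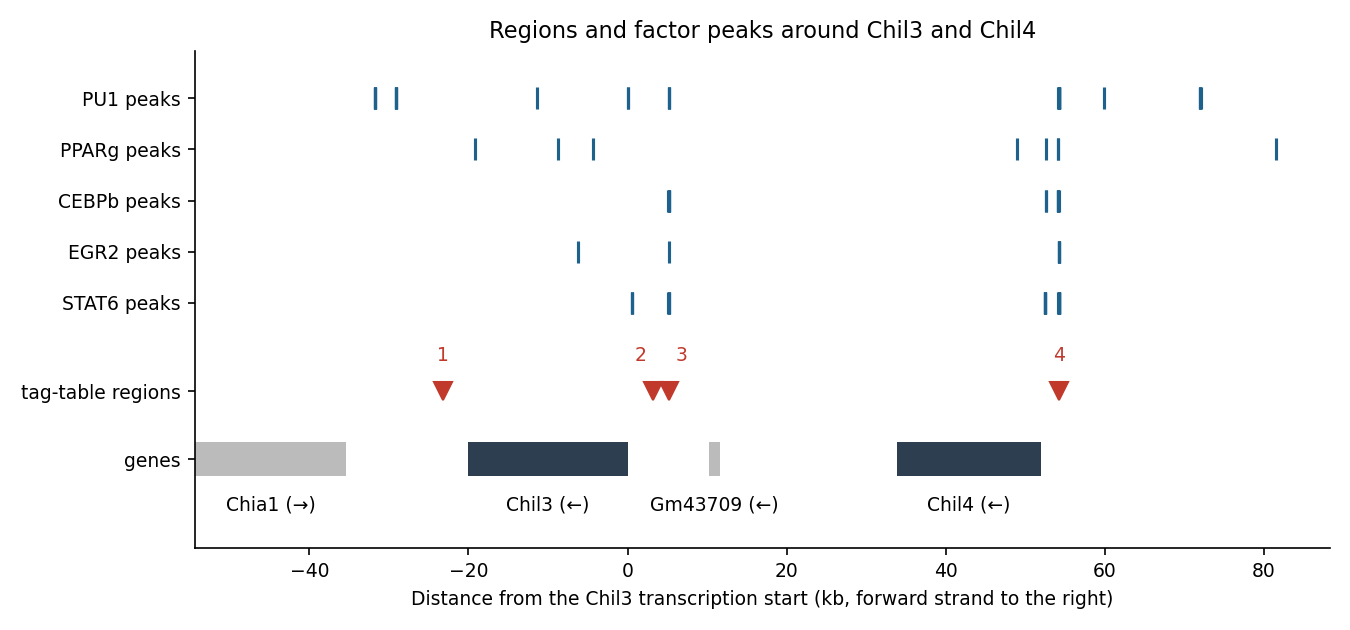
Positions around both genes, in kb from the Chil3 start (forward strand to the right, so that both genes are read to the left). Bars are genes with their direction, triangles the 4 tag-table regions and ticks the 76 factor peaks, a row for each factor. Peaks of STAT6 stand at 4 places only, near each start and at regions 3 and 4.

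The 76 peaks stood at 16 positions. The 4 that carried STAT6 peaks are shown first, as 200 bp on the strand of the genes (mm10), since the peaks and tags described next fell there. Capitals mark motif matches found by search on both strands. In the proximal windows, centred 580 bp (Chil3) and 575 bp (Chil4) upstream of the start, they are TTC and GAA separated by 4 bases, the spacing preferred by STAT6. In the Chil3 distal window they are the C/EBP motif TTGCNNAA on the opposite strand, and in the Chil4 distal window the nuclear receptor half-site AGGTCA on the opposite strand.

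Chil3 proximal (chr3:106168045-106168244): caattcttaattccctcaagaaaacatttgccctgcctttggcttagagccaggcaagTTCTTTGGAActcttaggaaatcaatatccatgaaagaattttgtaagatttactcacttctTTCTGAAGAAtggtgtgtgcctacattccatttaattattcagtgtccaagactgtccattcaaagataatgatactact
Chil4 proximal (chr3:106219983-106220182): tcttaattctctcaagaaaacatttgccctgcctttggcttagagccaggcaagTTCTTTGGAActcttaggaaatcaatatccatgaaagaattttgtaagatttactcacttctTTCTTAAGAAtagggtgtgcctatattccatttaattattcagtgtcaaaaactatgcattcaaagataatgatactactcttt
Chil3 distal (chr3:106172637-106172836): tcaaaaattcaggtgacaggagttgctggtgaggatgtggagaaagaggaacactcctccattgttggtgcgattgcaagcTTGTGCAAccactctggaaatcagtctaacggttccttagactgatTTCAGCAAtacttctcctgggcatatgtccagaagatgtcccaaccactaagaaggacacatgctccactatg
Chil4 distal (chr3:106221652-106221851): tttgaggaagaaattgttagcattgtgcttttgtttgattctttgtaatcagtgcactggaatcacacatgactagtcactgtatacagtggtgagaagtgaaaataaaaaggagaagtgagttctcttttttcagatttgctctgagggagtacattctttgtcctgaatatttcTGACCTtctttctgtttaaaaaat

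The proximal windows of Chil3 and Chil4 were 95.5% identical over 200 bp, and each held 2 STAT motifs, 622 and 560 bp upstream of the Chil3 start and 621 and 559 bp upstream of the Chil4 start. The first motif is the same in both genes and the second differs between them inside the spacer. Of 77943 windows of 200 bp at the region centres of the C57 time course, 6.04% held at least 1 such motif and 0.267% held at least 2. A longer stretch around the starts, 2974 bp aligned and ending 1188 bp upstream of Chil3, was 93.5% identical between the genes. Regions 3 and 4 lie outside it. The stretch that holds region 3 aligned instead over 6161 bp, at 90.9% identity, with a place farther upstream of Chil4. The Chil4 distal window found no partner elsewhere in the locus, whereas the Chil3 distal window aligned over its whole length with 4 other places there at 82.4% to 83.3% identity. It held 2 C/EBP motifs (12% of region windows held at least 1 and 1.16% at least 2), and the Chil4 distal window held 1 half-site (14% of windows held at least 1). The EGR motif searched (GNGTGGGNG, in 8.49% of windows) had no match in the 4 windows. Neither did GGAAGT, the core bound by PU.1 (33.1% of windows), or TTCNNNGAA, a STAT motif with a 3-base spacer (5.63%). The STAT motif with 4 bases between had no match in either distal window, and the C/EBP motif had none in the Chil4 distal window. Peaks of STAT6, PU.1 and C/EBPβ were listed at both distal sites, as given below. The RefSeq promoters of the 2 genes (GRCm38, 250 bp before to 50 bp after the start) were 92.7% identical. Each held TTCNNNGAA, the motif with the shorter spacer, 172 bp upstream of the start (8.3% of 32851 promoters held it), and the PU.1 core GGAAGT stood 2 times in the Chil3 promoter and 1 time in that of Chil4 (23.8% of promoters held it).

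Reads of 75 bp can be placed wrongly where sequence repeats. Of the 75-base stretches touching each window, 13.1% in either proximal window and 5.35% in either promoter occurred at least 2 times in the mm10 genome, with 2 copies at most. In region 3 the share was 34.7%, with up to 8276 copies, and in the distal window within it 13.9%. It was 0% in regions 1, 2 and 4 and in the Chil4 distal window. Values at region 3 and at the proximal peaks are therefore uncertain as to their place, whereas those at regions 1, 2 and 4 come from sequence that is unique at this length in mm10. The genomes of the other strains were not searched here.

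Region 4, upstream of Chil4, gained H3K27ac after 24 hours of IL-4 in each of the 4 strains with a row. In C57 the basal libraries gave 8.14 and 1.43 tags and the IL-4 libraries 75.6 and 72.9. In NOD the values were 6.65 and 6.35 basal against 67.3 and 62.5 with IL-4. In BALB they were 2.94 and 1.79 against 41.4 and 17.2, and in PWK 3.43 and 4.70 against 55.2 and 19.1. In no strain did the basal and IL-4 libraries overlap. With so few libraries a group this can occur without a change. The share of all regions whose groups did not overlap was not counted, here or below. The 2 IL-4 libraries lay close together in C57 and NOD and more than a factor of 2 apart in BALB and PWK.

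Each of the 4 changes passed the fold rule, whose thresholds come from the study's methods: a rise of at least 2.5-fold between group means plus 1, with at least 16 tags (8 for Pol II) in either group. The study asked this of H3K27ac and Pol II together, whereas here it was applied to each mark alone, and also to H3K4me2 and H3K4me3. The background is the share of all regions of a table that passed it upward: 3.46% in C57, 2.84% in BALB, 3.24% in NOD and 3.1% in PWK. The ratios were 13 in C57, 9 in BALB, 8.78 in NOD and 7.53 in PWK, which placed region 4 at rank 137 of 67742 regions in C57, 149 of 54022 in BALB, 269 of 68932 in NOD and 271 of 60175 in PWK. In limma on log2(tags + 1), with Benjamini-Hochberg adjustment over all regions of the table, the log2 fold change was 4.00 ± 0.70 (SE; 2 libraries a group throughout for H3K27ac) in C57 (adjusted p = 0.108), 3.07 ± 0.58 in BALB (adjusted p = 3.8e-05), 3.13 ± 0.54 in NOD (adjusted p = 0.0837) and 2.74 ± 0.67 in PWK (adjusted p = 0.0937). Upward calls by limma were 0% of regions in C57 (0 of 67742, although 14904 regions had an unadjusted p under 0.05), 1.6% in BALB, 0.0566% in NOD and 0.487% in PWK. In the larger time course fit, which holds the same C57 libraries, the same change passed (adjusted p = 0.0046). DESeq2 on the recovered reads called it in all 4 strains, and edgeR in C57 and BALB. The strain tables were made separately, so no test compared strains.

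Pol II at region 4 rose with it. The 4 basal C57 libraries gave 1.25, 2.41, 0 and 1.01 tags, and the 3 IL-4 libraries 42.7, 35.5 and 16.7. BALB gave 0.64, 0.59 and 1.09 against 8.53 and 18.3, NOD 2.6 and 4.1 against 26.6 and 35.8, and PWK 2.12, 1.40 and 1.52 against 15.8, 11.9 and 11.1. Every IL-4 library exceeded every basal library of its strain. The change passed the fold rule in all 4 strains, where 1.57% (C57), 5.91% (BALB), 2.35% (NOD) and 2.66% (PWK) of regions did so. The limma log2 fold changes were 3.94 ± 0.55 in C57 (adjusted p = 0.0079), 2.94 ± 0.79 in BALB (adjusted p = 0.0317), 2.89 ± 0.49 in NOD (adjusted p = 0.214) and 2.37 ± 0.46 in PWK (adjusted p = 0.0171), against upward limma calls at 0.223%, 0.663%, 0% (0 of 68932, with 5271 at an unadjusted p under 0.05) and 1.44% of regions. The C57 call was lost without IL-4 library 1 (adjusted p = 0.105) or 2 (adjusted p = 0.101), the BALB call without any 1 of its 5 libraries (adjusted p 0.0933 to 0.788), and the PWK call without 5 of its 6 libraries (adjusted p 0.0589 to 0.1195 in those, with basal library 1 the exception). The log2 fold change stayed between 2.23 and 3.81 in these refits. The BALB call was also lost with median-ratio scaling (adjusted p = 0.294), where the median region rose by 0.32 on the log2 scale without it.

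H3K4me2 at region 4 started higher and changed less. In C57 it went from 11.4 and 4.93 to 35.6 and 21.2 tags, and in PWK from 2.76 and 8.05 to 31.5 and 11.4, and both changes passed the fold rule (0.387% of regions in C57 and 0.926% in PWK passed). In NOD it went from 14.5 and 12.2 to 41.9 and 24.8, and in BALB from 12.9 and 3.92 to 33.9 and 7.22, which did not pass it (0.354% and 0.294% did). The BALB groups overlapped. Over all regions H3K4me2 moved by a median log2 of -0.69 in C57, -0.63 in BALB, -0.30 in NOD and -0.18 in PWK, and when each table was rescaled by median ratios region 4 passed the fold rule in all 4 strains. H3K4me3 at region 4 stayed at or under 10.48 tags in every library and passed in none of the 4 strains, where 0.639% (C57), 0.235% (BALB), 0.223% (NOD) and 0.396% (PWK) of regions passed. Its largest values were in NOD, from 0.71 and 0.70 to 6.48 and 10.48. BALB had no H3K4me3 read there in 4 libraries.

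**Figure D2:**
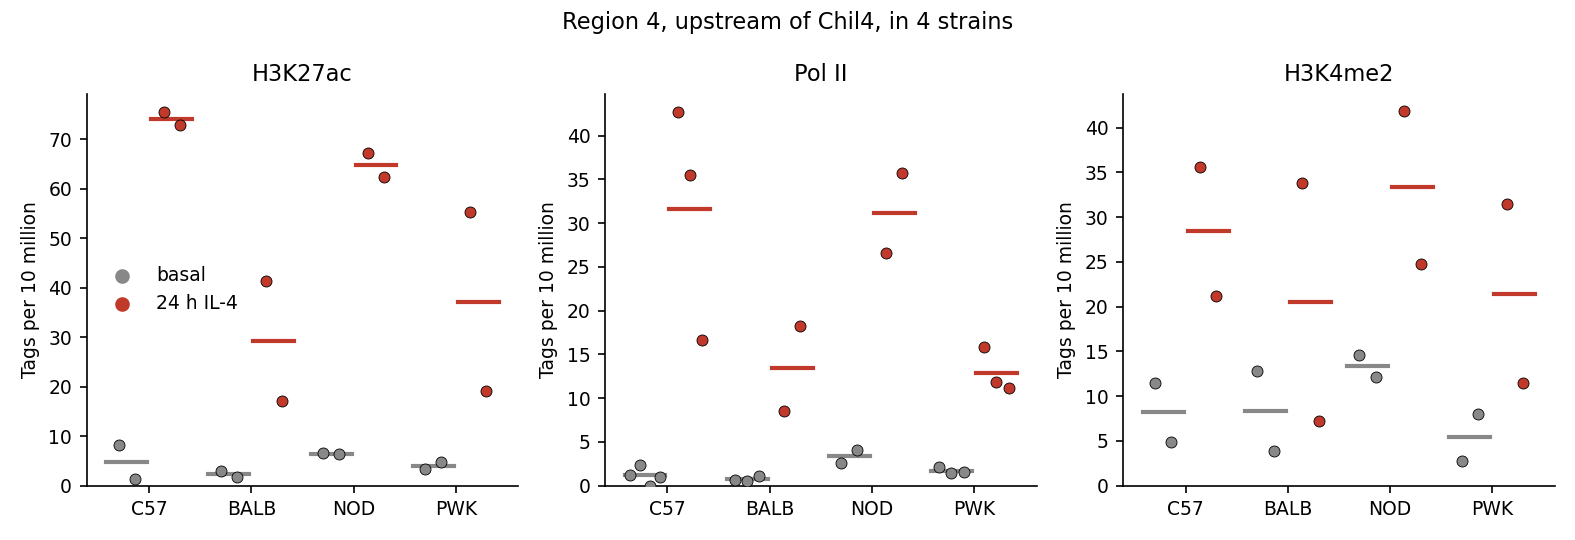
Tags per 10000000 at region 4, upstream of Chil4, with a point for each library and a line at the group mean, basal in grey and after 24 h of IL-4 in red. H3K27ac (left) and Pol II (middle) of IL-4 libraries lie above all basal libraries of their strain. H3K4me2 (right) overlaps in BALB.

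The authors' open chromatin labels list region 4 as accessible in C57 in basal cells and at 1 h of IL-4, and in BALB, NOD and PWK in both basal and 24 h cells. In C57 the site is therefore listed as open before IL-4, at which time its H3K27ac was 8.14 and 1.43 tags. Region 1 is listed as open at 24 h, region 2 at 1 h, and region 3 at 6 h and 24 h. None of these is listed as open in basal cells, so regions 1, 2 and 3 entered the tables through IL-4 cells alone. That choice favours a rise at them over regions also open in basal cells, and their ranks and passes are descriptions.

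In the C57 time course region 4 already rose at 1 h. H3K27ac was 53.3 and 18.2 tags at 1 h, 94.7 and 108 at 6 h and 76.4 and 72.9 at 24 h, against the basal 8.14 and 1.43. No IL-4 library overlapped the basal ones, and the 6 h libraries were the highest. The change passed the fold rule at each time (2.31% of 77955 regions at 1 h, 5.59% at 6 h and 3.77% at 24 h). The limma log2 fold change was 2.78 ± 0.66 at 1 h (adjusted p = 0.0209), 4.44 ± 0.66 at 6 h (adjusted p = 0.00124) and 4.00 ± 0.66 at 24 h (adjusted p = 0.0046), with upward limma calls at 1.37%, 2.67% and 1.13% of regions. At 1 h the call was lost without basal library 2, 1 h library 1 or either 6 h library (adjusted p 0.0538 to 0.221). The times share the basal libraries, and no test compared 1 time with another.

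Pol II at region 4 was 11.2 tags in the only 1 h library, 52.6 and 52.2 at 6 h and 42.7, 34.6 and 16.7 at 24 h, against at most 2.41 basal. It passed the fold rule at each time (2.76%, 2.52% and 1.79% of regions) and limma at 6 h (4.75 ± 0.56, adjusted p = 0.00109) and 24 h (3.93 ± 0.49, adjusted p = 0.000784) but not at 1 h (2.62 ± 0.72, adjusted p = 0.169), where the lone library was taken to vary like the other groups. Upward limma calls for Pol II made up 0.0462%, 0.428% and 0.503% of regions at the 3 times. Without 6 h library 1 the 6 h adjusted p was 0.0921.

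Region 1, just past the 3′ end of Chil3, held the largest Pol II ratios among the 4 regions at each time. It was named after its values were seen. Its basal libraries gave 3.12, 1.6, 0 and 4.05 tags. After IL-4 it held 51.3 tags at 1 h, 263 and 479 at 6 h and 85.4, 74.2 and 43.6 at 24 h. All 6 IL-4 libraries stood at least a factor of 10 above the highest basal library, with 6 h the highest. At 6 h the group mean plus 1 was 116.5 times the basal mean plus 1, the highest such ratio of all 77955 regions, and its tag level ranked 690th. Region 1 was listed through open chromatin at 24 h of IL-4 alone, which favours a high rank here and at 24 h. The pooled reads, scaled by depth, gave a ratio of 195.5 (exact 95% interval 108.9 to 392.4, counting error only). The limma log2 fold change was 4.27 ± 0.73 at 1 h (adjusted p = 0.0444), 7.04 ± 0.57 at 6 h (adjusted p = 2.48e-05) and 4.61 ± 0.50 at 24 h (adjusted p = 0.000376), and the fold rule passed at all 3 times. The 1 h value rests on 1 library, taken to vary like the other groups. In the strain table, fitted on basal and 24 h libraries alone, the adjusted p at 24 h was 0.00396. That call was lost without IL-4 library 1 (adjusted p = 0.0700) or 2 (adjusted p = 0.101), and the 1 h call without any 1 of 7 among the other 9 libraries (adjusted p 0.0537 to 0.0943). The 24 h ratio was the 8th highest of 67742 regions.

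The other marks were near zero at region 1. H3K27ac was 1.36 and 0 basal, 2.32 and 2.75 at 1 h, 1.54 and 3.04 at 6 h and 5.09 and 3.94 at 24 h. H3K4me2 had 0 reads in both basal libraries and 3.10 and 4.39 tags (4 and 6 reads) at 24 h. None passed the fold rule, for which they lacked the 16 tags. Pol II downstream of a gene end is usually polymerase that has transcribed past the polyadenylation site. The sites counted were chosen by open chromatin, so Pol II over the Chil3 body or start was not measured here.

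Region 2, upstream of Chil3, gained H3K27ac with the highest level at 6 h. The values were 0 and 4.28 basal, 14.7 and 12.1 at 1 h, 27.7 and 32.3 at 6 h and 12.7 and 13.8 at 24 h. No IL-4 library overlapped the basal ones, and the 6 h libraries stood above all others. The limma log2 fold change was 2.64 ± 0.69 at 1 h (adjusted p = 0.0283), 3.75 ± 0.69 at 6 h (adjusted p = 0.00527) and 2.63 ± 0.69 at 24 h (adjusted p = 0.0639), and the fold rule passed at 6 h alone, since the other times stayed under 16 tags. The 6 h call was lost without 6 h library 1 (adjusted p = 0.0905) or 2 (adjusted p = 0.0937), and the 1 h call without basal library 1 (log2 1.44, adjusted p = 0.250), either 1 h library or either 6 h library (adjusted p 0.0545 to 0.0785). Pol II there was 7.62 tags at 1 h, 6.57 and 0.49 at 6 h and 0.67 to 2.73 at 24 h, against 0.54 to 4.05 basal, and did not pass either rule.

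**Figure D3:**
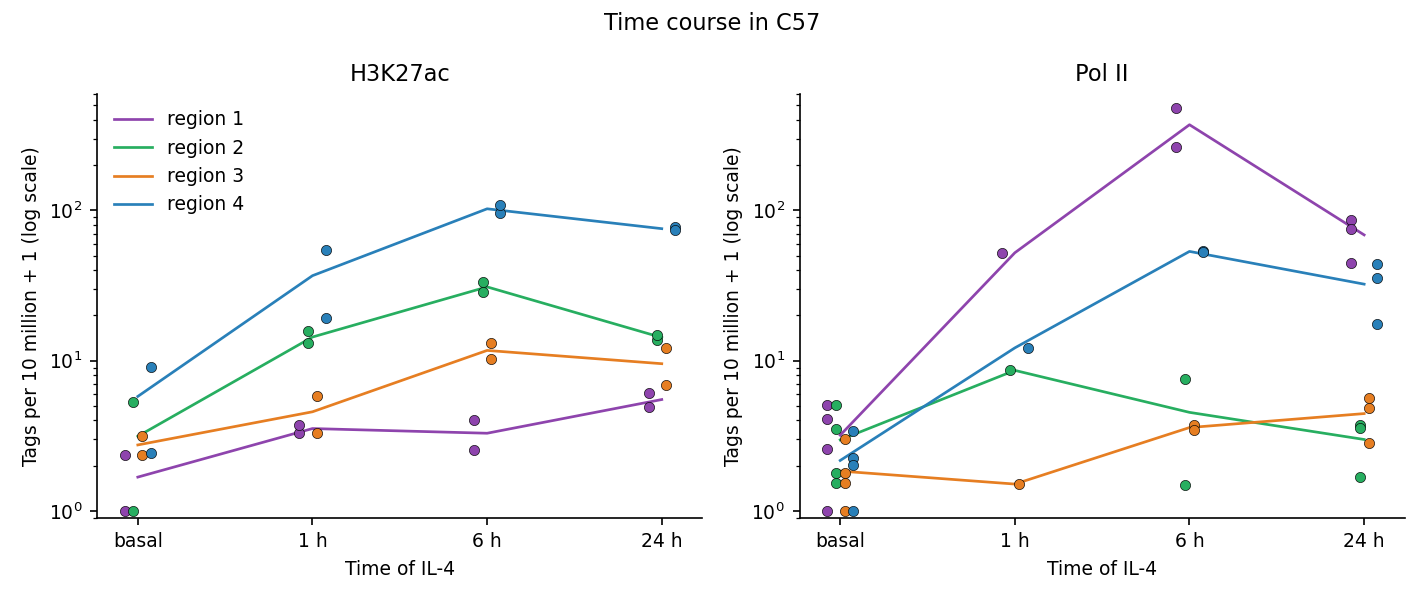
H3K27ac (left) and Pol II (right) in C57 at the 4 regions, as tags per 10000000 plus 1 on a log axis, against time of IL-4. Points are libraries and lines join group means. Region 4 leads in H3K27ac and region 1 in Pol II, and both are highest at 6 h.

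Region 3, farther upstream of Chil3, stayed low in H3K27ac in C57. It went from 1.36 and 2.14 tags basal to 2.32 and 4.82 at 1 h, 9.24 and 12.2 at 6 h and 5.94 and 11.2 at 24 h. The groups at 6 and 24 h did not overlap the basal one, but none reached 16 tags, and the limma tests did not pass (log2 fold change 2.09 ± 0.63, adjusted p = 0.0596 at 6 h; 1.76 ± 0.63, adjusted p = 0.166 at 24 h). The reads behind these values were 2 and 3 basal and 20 at most, over a region in which 34.7% of 75-base stretches repeat elsewhere. Pol II there was 4.67, 1.82 and 3.85 tags at 24 h against 0 to 2.03 basal. Over the 6 member rows of the strain tables H3K27ac passed the fold rule in 4 (background 2.84% to 3.46% of regions) and Pol II in 5 (1.57% to 5.91%). Over 12 pairs of region and time in the C57 time course H3K27ac passed it in 4 (2.31% to 5.59%) and Pol II in 6 (1.79% to 2.76%).

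EGR2, a zinc finger factor induced by IL-4, was counted at regions 3 and 4 in C57. At region 4 the basal libraries gave 36.5 and 26.9 tags, the 1 h libraries 6.32 and 44.4, the 6 h libraries 13.97 and 106 and the 24 h libraries 90.2 and 115. At region 3 the values were 6.56 and 6.71 basal, 4.52 and 8.68 at 1 h, 3.49 and 38.7 at 6 h and 20.7 and 44.2 at 24 h. At both, the 24 h libraries lay above the basal ones, and the 2 libraries at 6 h differed by more than a factor of 7. Region 3 entered this table through its EGR2 peak at 24 h alone, so a 24 h value above basal there was favoured by that choice. The log2 fold change at 24 h was 1.67 ± 0.89 at region 4 and 2.03 ± 1.02 at region 3, neither passing limma (adjusted p = 0.838 for both). No site of 30675 passed at any time (0% at 1 h, 0% at 6 h and 0% at 24 h, with 1085, 1169 and 1038 sites at an unadjusted p under 0.05), and edgeR and DESeq2 called neither member site. Over all sites the median log2 fold change was -0.59 at 1 h, 0.17 at 6 h and 0.66 at 24 h. Replicate 1 at 1 h held 5.38% of its tags in the sites, against 10.8% to 22% in the other 7 libraries, and replicate 1 at 6 h was the shallowest, at 5728050 tags. Their part in the spread was not tested.

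Peaks were listed once per group, from replicates joined by the authors, so that a peak's count has no replicate error. STAT6, the factor that IL-4 activates, had peaks in C57 at 4 places after IL-4 and at 1 before it. The basal list held only the Chil4 distal site (region 4), with a count of 35. At 1 h the Chil4 distal peak counted 455, the Chil4 proximal peak 317, the Chil3 proximal peak 241 and the Chil3 distal peak (region 3) 237. At 6 h they counted 363, 289, 176 and 157, and at 24 h 138, 105, 35 and 42. Both Chil4 peaks counted more than both Chil3 peaks in each of these 3 lists. In rank by count, the Chil4 distal peak stood in the top 0.866% of the list at 1 h, the top 0.49% at 6 h and the top 2.54% at 24 h. These counts carry the scaling of their own list, which the sources used here do not give, so the times are set side by side only.

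**Figure D4:**
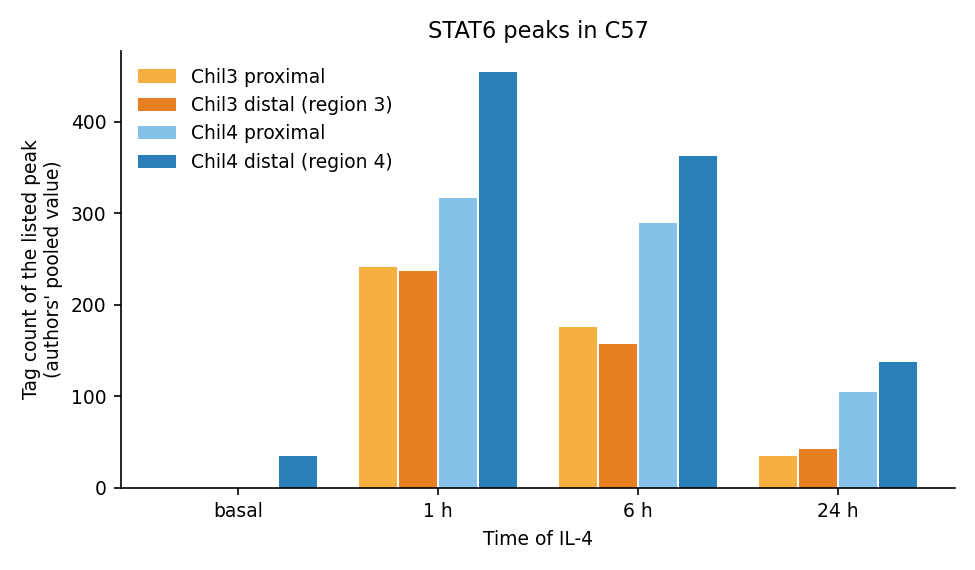
Count of each listed STAT6 peak in C57 (authors' value for the group, no replicate error) by time of IL-4, with a bar for each of the 4 sites. At basal only the Chil4 distal site is listed, and at 1, 6 and 24 h the Chil4 distal peak is the tallest.

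In the other strains STAT6 was measured at 24 h and basal. The Chil4 distal site was listed at 24 h in BALB (count 59), NOD (106) and PWK (115), and in basal BALB (18) and NOD (29). The Chil4 proximal site was listed at 24 h in NOD (55) and PWK (52), and the Chil3 distal site in NOD (23). The Chil3 proximal site was listed in C57 alone. SPRET had no STAT6 peak in the locus.

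PU.1, the factor that opens macrophage enhancers, marked the Chil4 distal site in all 5 strains, both basal and at 24 h. C57 counted 301 basal and 463 at 24 h. NOD counted 319 and 459, BALB 264 and 278, PWK 182 and 183, and SPRET 29 and 38. In C57, NOD, BALB and PWK they stood in the top 1.19% to 14.5% of their lists by count, and in SPRET in the top 88.9% (basal) and 71% (24 h). At the Chil3 distal site PU.1 was listed at 24 h only, in C57 (147), NOD (103) and BALB (41). A further PU.1 peak lay 59 bp upstream of the Chil3 start in C57 (99) and 52 bp upstream in NOD (75), at 24 h only, within the promoter that holds the PU.1 core 60 and 46 bp upstream of the start. No list held a peak at the matching place of Chil4.

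C/EBPβ was listed at the Chil3 distal site, which holds the C/EBP motifs shown above, in basal C57 (29) and NOD (60) and at 24 h in C57 (119), NOD (221) and BALB (56). At the Chil4 distal site it was listed in basal NOD (29) and at 24 h in C57 (69), NOD (120), BALB (63) and PWK (33). PPARγ, a nuclear receptor induced by IL-4, was listed at the Chil4 distal site at 24 h in C57 (45.6) and NOD (61.4), with the half-site shown above. Its other 6 peaks, at counts of 11.4 to 23.7, lay in introns of Chil3 and Chil4, at the Chil4 proximal site in NOD and farther upstream of Chil4. EGR2 was listed at the Chil4 distal site at 1 h (72) and 24 h (173) in C57 and in basal (21.1) and 24 h (37.5) NOD, and at the Chil3 distal site at 24 h in C57 (75). The authors' labels in the EGR2 time course differ from these lists. They name the Chil4 distal site in basal and 24 h C57 cells and not at 1 h. Basal C57 tags of EGR2 there were 36.5 and 26.9, so a missing basal C57 peak does not show absence. A further basal NOD peak (11.5) lay in an intron of Chil3. The EGR2 and PPARγ lists of 2 formats differ in scale and are not compared.

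Over all factors the basal lists held 20 of the peaks and the 24 h lists 47. The Chil4 distal site carried 30 of the 76, from 5 factors and 5 strains, the Chil3 distal site 13 from 4 factors, and the Chil4 proximal site 8 from 3 factors. Longer lists hold more peaks. When the basal and 24 h lists of each factor and strain were shortened to equal length by score, 17 and 36 peaks were left. C57 held 36 peaks, of which 5 came from 1 h lists and 4 from 6 h lists that the other strains lack. NOD held 24 peaks, BALB 7, PWK 5 and SPRET 4, and 22 of the 54 lists held none. List lengths differed between strains, for EGR2 at 24 h from 14919 peaks in PWK to 39458 in SPRET. The strain counts were not adjusted for length and are not read as strain differences.

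Loss of Egr2 was compared at region 3, the only member site in the 4677 sites of the genotype tables. The authors chose these as EGR2 peaks induced by 24 hours of IL-4, so the sites, and the shares of them called in this contrast, were selected for binding of EGR2 gained with IL-4. H3K27ac, H3K4me2, PU.1 and C/EBPβ there were lower in LyzM-Cre Egr2 fl/fl than in Egr2 fl/fl BMDMs after 24 hours of IL-4. H3K27ac was 13.1 and 10.9 tags in Egr2 fl/fl and 1.04 and 1.16 in LyzM-Cre Egr2 fl/fl, a log2 fold change of -2.63 ± 0.57 (adjusted p = 0.00396). H3K4me2 was 19.3 and 10.7 against 2.89 and 3.85 (-1.83 ± 0.58, adjusted p = 0.0253). PU.1 was 136 and 92.7 against 50.1 and 27.3 (-1.58 ± 0.28, adjusted p = 0.00351), and C/EBPβ 241 and 121 against 39.4 and 30.0 (-2.28 ± 0.72, adjusted p = 0.0317). The libraries of the genotypes did not overlap in any of these. With so few libraries a group this can occur without a change, and the share of all sites that did so was not counted.

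The background was broad in this contrast. Of the 4677 sites, limma called 23.2% lower without Egr2 in H3K27ac, 8.94% in H3K4me2, 9.36% in PU.1 and 8.25% in C/EBPβ. The median log2 fold change over all sites was -0.50 for H3K27ac, -0.16 for H3K4me2, -0.33 for PU.1 and -1.14 for C/EBPβ; region 3 lay below the median site in each. With median-ratio scaling, which removes such a shift, the calls for H3K27ac and PU.1 stood (the H3K27ac call was lost with DESeq2, adjusted p = 0.113), and those for C/EBPβ (-1.20, adjusted p = 0.194) and H3K4me2 (-1.71, adjusted p = 0.102) did not. Leaving out Egr2 fl/fl library 1 at 24 h also ended the H3K27ac call (adjusted p = 0.0509), and leaving out either of those libraries ended the PU.1 call (adjusted p = 0.214 and 0.112). The C/EBPβ and H3K4me2 calls were each lost without any 1 of the 4 libraries at 24 h (adjusted p 0.142 to 0.443 and 0.0548 to 0.350).

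STAT6 at region 3 was 22.4 and 10.6 tags in Egr2 fl/fl at 24 h and 6.19 and 2.25 in LyzM-Cre Egr2 fl/fl. The groups did not overlap, but the difference did not pass (-1.77 ± 0.74, adjusted p = 0.266), in a contrast that called 0.0214% of sites lower. PPARγ was 5.12 and 7.88 against no read in either library (adjusted p = 0.332, with 0% of sites called lower, 0 of 4677 with 670 at an unadjusted p under 0.05). These are 10 reads against 0. Pol II had 1 library a group, with 10.2 tags (12 reads) in Egr2 fl/fl and 1.33 (1 read) in LyzM-Cre Egr2 fl/fl at 24 h, and 1.67 and 1.95 basal, and allowed no test. The table holds 4 further Pol II columns that matched no sample's labels and were not used.

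Basal values were closer for the targets other than PPARγ. H3K27ac was 2.56 and 2.72 in Egr2 fl/fl and 1.00 and 0.56 in LyzM-Cre Egr2 fl/fl, PU.1 88.4 and 53.2 against 41.5 and 36.6, C/EBPβ 63.8 and 93.1 against 44.3 and 37.1, H3K4me2 6.31 and 3.77 against 5.64 and 1.75, and STAT6 6.19 and 2.39 against 7.80 and 1.84. No basal difference passed for the 6 targets (adjusted p 0.387 to 1). The basal groups of H3K27ac, PU.1 and C/EBPβ nevertheless did not overlap, with the LyzM-Cre libraries lower. PPARγ was higher in the LyzM-Cre libraries, at 1.82 and 0 tags in Egr2 fl/fl and 9.58 and 9.28 in LyzM-Cre Egr2 fl/fl. Its basal log2 fold change (2.64 ± 1.09) had the opposite sign to that at 24 h (-2.88 ± 1.09).

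Within Egr2 fl/fl cells IL-4 raised H3K27ac at region 3 (1.83 ± 0.57, adjusted p = 0.0257), as at 25.6% of sites. The other 5 targets did not pass (adjusted p 0.111 to 0.424). Their backgrounds were 8.06% of sites for H3K4me2, 2.1% for C/EBPβ, 8.19% for PU.1, 11.8% for STAT6 and 0% for PPARγ (0 of 4677, with 954 at an unadjusted p under 0.05). The H3K27ac call was lost with median-ratio scaling (1.38, adjusted p = 0.0947) and without any 1 of its 4 libraries (adjusted p 0.0918 to 0.143). In LyzM-Cre Egr2 fl/fl no target passed (adjusted p 0.845 to 1), with a log2 fold change of 0.25 ± 0.57 for H3K27ac and -0.07 ± 0.28 for PU.1. The largest change there was for PPARγ (-3.38 ± 1.09), from 15 basal reads to 0 at 24 h. The difference of the IL-4 response between genotypes was tested itself and did not pass for any of the 6 targets (adjusted p 0.308 to 0.951). For H3K27ac it was -1.58 ± 0.81 and for PU.1 -0.78 ± 0.40. It was largest for PPARγ (-5.52 ± 1.54), which rests on few reads. Egr2 itself was not measured in these tables, so its loss in the LyzM-Cre cells was not checked here. A mark lost from all cells and a mark kept in fewer cells cannot be told apart in bulk libraries.

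**Figure D5:**
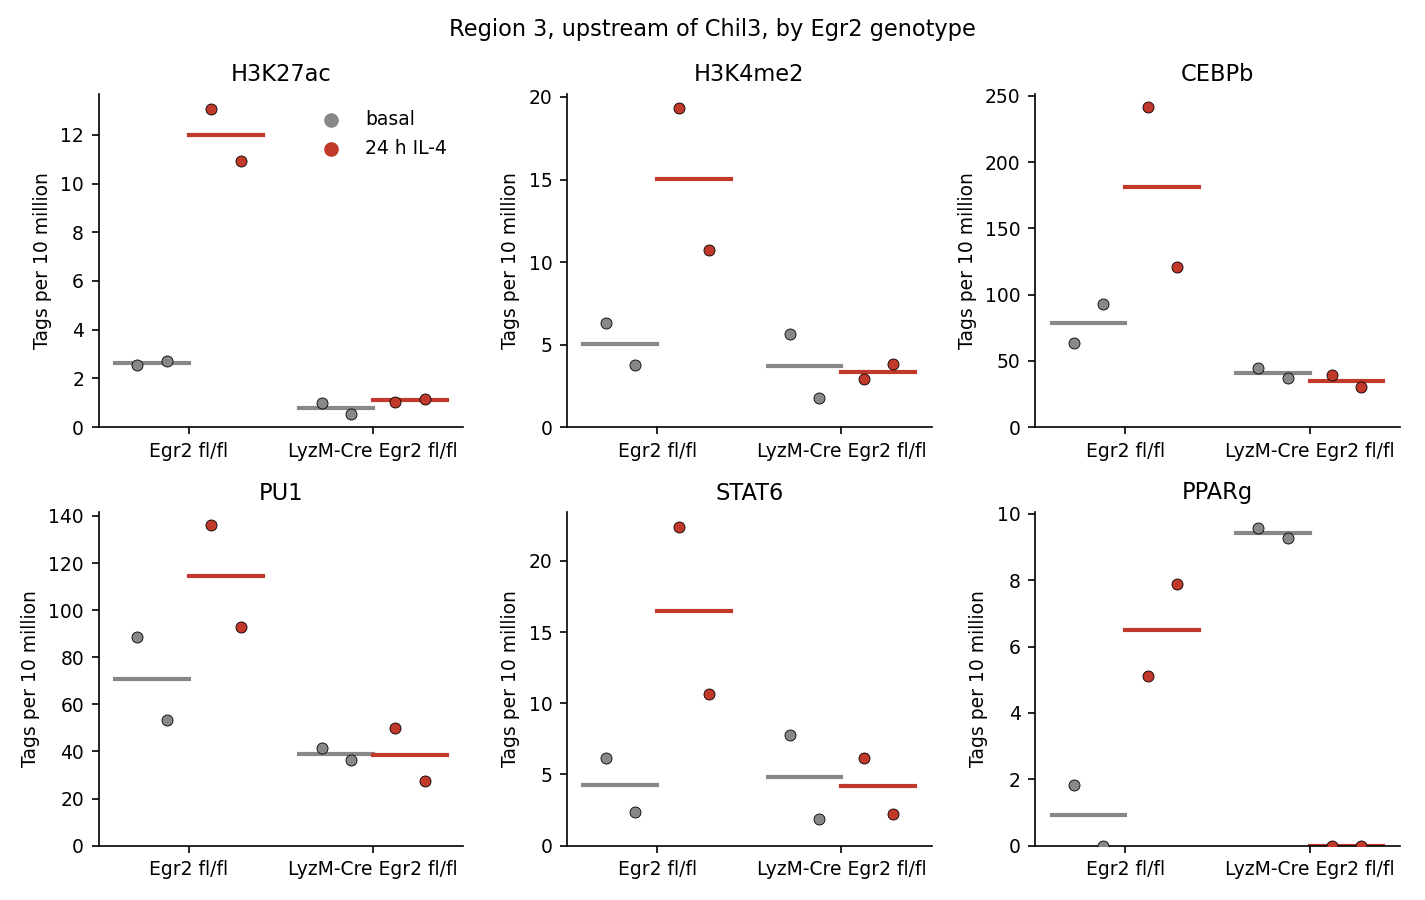
Tags per 10000000 at region 3, upstream of Chil3, by genotype, with a point for each library and a line at the mean of 2, basal in grey and after 24 h of IL-4 in red. In Egr2 fl/fl the IL-4 libraries are the highest for H3K27ac, H3K4me2, C/EBPβ, PU.1 and STAT6, and all IL-4 libraries of LyzM-Cre Egr2 fl/fl lie below them.

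Other genes of the chitinase family and of the IL-4 response place these values. Of 8 chitinase-family genes listed (Chia1, Chil1, Chil5, Chil6, Chit1, Chid1, Ovgp1 and Chi3l7), 7 matched the annotation and 3 had a region within 1 kb of the start in C57. None of the 3 passed the H3K27ac fold rule in either direction. Chit1, an active chitinase of macrophages, went from 2.05 to 7.57 tags (group means), the oviduct gene Ovgp1 from 2.75 to 3.63 and the chitinase-domain gene Chid1 from 492 to 211. Of the 22 IL-4 response genes listed, 16 had a start region in C57, of which 9 passed the fold rule upward (3.46% of all regions did) and 0 downward, with a median log2 fold change of 1.66 against -0.28 over all regions. The counts upward were 8 of 16 in BALB, 8 of 16 in NOD and 8 of 15 in PWK, beside 2.84%, 3.24% and 3.1% of all regions. The list was chosen with earlier results of these data known, so these counts and the median describe it and are not a test. Slc7a2, an arginine transporter, had the largest rise in C57, from 7.96 to 272 tags (log2 4.79 ± 0.57), followed by Flt1, a VEGF receptor, from 4.86 to 64.5 (3.48 ± 0.50). Region 4 of Chil4 (4.00 ± 0.70) lay between them. None of these passed limma in C57, where no region did.

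By the pattern of H3K27ac over the 8 group means of C57, BALB, NOD and PWK, the start regions most like region 4 among 10969 genes were those of Myzap (Pearson r = 0.991), Gnat2 (0.988), Ocstamp (0.986), Tnp2 (0.983) and H1foo (0.978). Myzap, Ocstamp and Tnp2 had 6 means and the other 2 had 8. The means share libraries within each group, so these are descriptions. Ocstamp, needed for the fusion of osteoclasts and macrophages, spanned 4.07 to 21.3 tags and H1foo, an oocyte linker histone gene, 43.9 to 227, while Myzap stayed between 0.595 and 4.05. The Chil3 regions had too few group means (4 at most) for such a comparison.

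The cells carried H3K27ac at macrophage genes. All 7 macrophage markers listed (Csf1r, Cd68, Adgre1, Itgam, Mertk, Spi1 and Lyz2) had a start region in each of C57, BALB, NOD and PWK, with basal H3K27ac of 92.7 to 1294 tags. Their median log2 fold change at 24 h was -1.11 in C57, -0.86 in BALB, -0.72 in NOD and -0.48 in PWK, against a rise at region 4, and Lyz2 in C57 alone passed the fold rule, downward. The T cell genes Cd3e and Cd3g had no start region. The dendritic cell gene Zbtb46 rose past the rule in PWK (1.18 to 21.4 tags), as region 4 did there, and went from 2.09 to 3.96 tags in C57, 2.37 to 6.86 in BALB and 0.83 to 5.31 in NOD, which did not pass. The neutrophil gene S100a8 held basal H3K27ac of 37.4 tags in C57, 172.3 in BALB, 164.4 in PWK and 238.5 in NOD. The other neutrophil genes listed, S100a9 and Ly6g, had no start region in these strains. The fibroblast gene Col1a1 went from 0.695 to 1.93 tags of H3K27ac in C57, 0.83 to 5.19 in NOD and 1.96 to 6.18 in PWK. Col1a1 had no start region in BALB, and the other fibroblast gene listed, Pdgfra, had none in any of these strains. Neither S100a8 nor Col1a1 passed the rule in any strain with a region. Basal H3K4me3 at Zbtb46 was 285.6 tags in C57, 299.5 in BALB, 227.3 in NOD and 292.5 in PWK. The medians of the macrophage markers were 319.5, 240.3, 294.7 and 216.6 in that order. Csf1r held 1.58, 2.98, 21.9 and 16.9, and the dendritic cell gene Flt3 held 35.8 in C57. H3K4me3 thus did not set Zbtb46 apart from the macrophage markers. The part of neutrophils, fibroblasts or dendritic cells in the values at region 4 was not tested. Library totals ran from 4691644 to 29050468 tags over 155 libraries, so 1 tag stood for 0.469 to 2.91 reads.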

How the data were processed

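ChIP-seq was measured in 267 samples, of which 155 libraries had a column in 9 tag tables, another 12 were inputs that were not used, and the others entered through 54 peak lists. A further 4 columns of the tag tables matched no sample's labels and were excluded. According to the methods section, reads of 75 bp were aligned by the authors to the genome of the strain (bowtie2), moved to mm10 coordinates and counted with HOMER. The deposited signal values are tags scaled by the authors to 10000000 per library, and multiplying by the library total gave whole reads (within 0.1) for 100% of 7268918 values. The deposited peak score and count are the authors' values for joined replicates (HOMER, IDR), with 1 list per group, so peaks carry no replicate error.

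Members and gene lists were chosen with earlier results of these data known. Regions with centres within 500 bp and peaks with centres within 200 bp were joined. Named regions were the one nearest each start, the one with the highest H3K27ac beyond 1 kb, those past the fold rule in at least 3 strains and every EGR2 site with tags. From the lists, genes with the largest rise in C57 were named, and Chit1, Chid1 and Ovgp1 because 5 or fewer had a region. Log2(tags + 1) was tested with limma 3.58.1 (trend, R 4.3.3, two-sided) over every region of a table, with Benjamini-Hochberg adjustment at 0.05. The fold rule took 2.5-fold with 16 tags (8 for Pol II) from the study's methods but was applied to each mark alone, and the pseudocount of 1, which understates folds at low values, was added here. edgeR 4.0.16 and DESeq2 1.42.0 on recovered reads were alternatives, as were other pseudocounts, minima, scalings and left-out libraries. On simulated counts with a fixed spread, the fold rule and the size of the limma fold were required to recover known changes. No requirement was set on the limma calls. No main test paired libraries, and the replicate number as a block was an alternative only. Same-numbered libraries deviated together for Pol II in C57 (correlations of deviations 0.118 to 0.24) and PWK (0.201 to 0.469). They also did so for H3K27ac at 24 h (0.435 in BALB to 0.492 in NOD). The labels give numbers only. Replicates are called biological in the methods without naming animals, so p-values measure the spread between these libraries. Intervals and read ratios cover counting error only. Sequences came from mm10 and RefSeq (GRCm38) and were compared with blastn 2.17.0. The SPRET tables, which hold no member row, were not tested. One marker list is not reported here.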

Additional observations from a re-analysis of the deposited data

How the results depend on the processing

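Of 42 single values tested, 14 kept their direction and their side of the limma threshold under every alternative, and 1 changed direction. That was H3K4me2 at region 4 in BALB, with a log2 fold change of -0.0061 without IL-4 library 1, and 2.08 without library 2. The fold rule for H3K27ac at 24 h (4 member rows passed) and for Pol II in the time course (6 pairs of region and time) gave counts within a factor of 1.5 under each alternative run. The Pol II count at 24 h went from 5 to 3 with minimums 2 times as high (16 tags for Pol II, 32 for histone marks), the H3K4me2 count from 2 to 0 with them and to 4 with a fold of 2 or median-ratio scaling, the H3K4me3 count from 0 to 1 with no minimum, and the H3K27ac time course from 4 to 9 with no minimum. Calls by limma at 24 h went from 1 to 6 for H3K27ac and from 0 to 2 for H3K4me2 with the replicate number as a block. They became 2 (edgeR) and 4 (DESeq2) for H3K27ac, and for H3K4me2 1 with edgeR, DESeq2 or median-ratio scaling. Calls lower without Egr2 went from 4 to 2 with median-ratio scaling, edgeR or DESeq2. The causes were not tested. For Pol II in C57 and PWK the block changed no call. Same-numbered H3K27ac libraries deviated together at 24 h, with correlations of deviations of 0.435 (BALB), 0.441 (PWK), 0.47 (C57) and 0.492 (NOD). For H3K4me2 these ran from 0.0793 (BALB) to 0.364 (PWK). Whether the numbers mark paired libraries is not settled by the labels.

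Without 1 library, limma calls ran from 1 to 2 (H3K27ac), 2 to 4 (Pol II) and 0 to 1 (H3K4me2) at 24 h, 2 to 6 (H3K27ac) and 3 to 5 (Pol II) in the time course, and 3 to 4 between genotypes, and the H3K4me2 fold count from 1 to 3. Leaving out the lone 1 h Pol II library gave no value at 1 h and was not run for the counts. Keeping the better-scored 0.5 of each peak list left 40 of 76 peaks. Groups of 1 to 4 libraries, low tags and repeated sequence at region 3, and sequence shared by the Chil3 and Chil4 starts limit these values.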
